A study of Homo sapiens with 6 samples.

Results

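Regions of the genome of 4000 bp or more that carried both H3K79me2 and H3K79me3 in control and in KDM2B-knockdown 293T cells are described here. They were found by merging the 4 chromatin immunoprecipitation sequencing (ChIP-seq) peak lists of the study wherever peaks shared at least 1 bp on chromosomes 1 to 22, X and Y. Regions were thus chosen by called peaks and length: a merged region was kept if it held at least 1 peak from each list and was 4000 bp or longer. Of 8899 merged regions, 1968 met the rule (22.1%, exact binomial 95% interval 21.3 to 23.0%), and they made up 50.2% of the 3922 regions with a peak in each of the 4 lists. The other 1954 such regions were shorter and serve for comparison. 293T cells derive from human embryonic kidney and express SV40 large T antigen. Control cells carried a stable control short hairpin RNA (shCTL), and knockdown cells a stable one directed at KDM2B (shKDM2B). The marks were pulled down with Abcam antibodies, ab3594 for H3K79me2 and ab2621 for H3K79me3, with 1 lot of each for both lines. There was 1 library per mark and line, and 1 input library per line, made without antibody. The labels do not say whether a line was 1 clone or a pool, and the level of KDM2B was not analysed here.

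Methylation of lysine 79 of histone H3 is added by DOT1L, the only known enzyme for this site in mammals, which places mono-, di- and trimethyl marks one methyl group at a time. The di- and trimethylated forms lie over actively transcribed genes, typically from just downstream of the start site into the gene body. The title of the series names KDM2B, a member of the JmjC family of histone demethylases, as an H3K79 demethylase. Broad domains of H3K79me2 and H3K79me3 are known from highly transcribed genes.

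The ChIP libraries held 13144744 to 17044011 tags after removal of duplicates, and the 2 H3K79me2 libraries differed more in depth than the H3K79me3 libraries, with 16018517 and 13144744 against 17044011 and 16389356 tags. With 1 library per group, no test between the lines or between the marks was possible. The values describe these libraries. Intervals of ratios cover the counting error of tags only. Intervals of shares are binomial over regions, which are not independent replicates, so they give no spread between libraries or cell lines. Presence of a peak in each list and the length chose the regions, so neither is a finding, and tags and edges come from the same lists and are given as descriptions. The peaks were not assigned to genes, because an annotation of hg19, the build of the lists, was not used here.

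The long regions covered 11.4 Mb, which was 35.2% of the length of all merged regions. They held 57.8% of the tags in control H3K79me2 peaks, 63.5% in knockdown H3K79me2 peaks, 49.1% in control H3K79me3 peaks and 46.4% in knockdown H3K79me3 peaks. Their median length was 5591.5 bp (quartiles 4731 and 6714). Of the 1968 regions, 785 reached 6000 bp, 83 reached 8000 bp and 6 reached 9000 bp, and the longest had 11248 bp. The widest ChIP peak in any list had 9166 bp, and 4 regions were longer than that. In 1881 regions (95.6%) each list had exactly 1 peak, so that length came from wide single peaks and seldom from chains of peaks. A chain without any peak of 4000 bp accounted for 54 regions (2.74%). Just inside the limit lay 125586950 to 125590949 (4000 bp) and 79005442 to 79009442 (4001 bp), both on chromosome 9 (hg19, as all positions here), with control H3K79me2 at 4.08 and 4.17 RPM per kb. RPM stands for tags per 1000000 tags of the filtered library, and kb for the called length of the peaks. Just outside, at 3999 bp, lay 105280051 to 105284049 on chromosome 14 and 29827353 to 29831351 on chromosome 16, at 3.29 and 7.17 RPM per kb.

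Within the long regions H3K79me2 was the broad mark and H3K79me3 the narrower one. Knockdown H3K79me2 peaks covered a median of 99.0% of the region (quartiles 93.6 and 100), control H3K79me2 peaks 93.0% (79.8 and 97.4), knockdown H3K79me3 peaks 72.7% (58.9 and 82.1) and control H3K79me3 peaks 68.0% (50.5 and 80.7). Both H3K79me2 lists covered more than either H3K79me3 list in 1621 regions (82.4%, 95% interval 80.6 to 84.0%), against 78.8% of the shorter regions. An H3K79me3 list covered least in 1899 regions. The outer edges of H3K79me3 lay inside those of H3K79me2 in 1221 regions (62.0%) in control cells and in 1689 regions (85.8%) in knockdown cells. The shorter regions had similar shares, 65.0% and 81.2%. A peak of 4000 bp or more was present in 1783 regions for knockdown H3K79me2, 1454 for control H3K79me2, 883 for knockdown H3K79me3 and 793 for control H3K79me3, and in all 4 libraries in 676 regions (34.3%). The fragment length that the caller estimated differed between libraries, at 148 bp for control and 210 bp for knockdown H3K79me2 and at 180 bp and 126 bp for H3K79me3. The window that the caller scans depends on it, and its part in these widths was not tested.

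The stretch under all 4 lists at once had a median of 3381.5 bp, or 62.5% of the region (quartiles 46.0 and 75.3%). At least 50% of the region lay under all 4 lists in 1371 regions (69.7%). In 2 regions no base did, since their peaks overlapped only in a chain.

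The main summits of the 4 libraries mostly lay on the same side of the midpoint of the region, and the 2 marks parted on the other, longer side. The main summit of a library is that of its peak with most tags in the region. In 1765 regions (89.7%, 95% interval 88.3 to 91.0%) the main summits of all 4 libraries lay on the same side of the midpoint of the region, 911 of them on the side with lower coordinates and 854 on the other. Among the shorter regions the share was 77.5%. In these 1765 regions the edge nearer to the summits was a median of 1253.5 bp away and the farther edge 4196.5 bp away. The far distance exceeds the near one by construction, since the sides were named by the midpoint. Both together span the region, so that they cannot both stay the same as length goes up. From regions under 5000 bp to those of 7000 to 8000 bp the near distance went from 1113 to 1449 bp and the far distance from 3282.75 to 5972 bp. At 8000 bp and over they stood at 2025 and 6403 bp. The near edge of H3K79me3 stood a median of 65 bp inside that of H3K79me2 in control cells and 189 bp in knockdown cells. The far edge stood 906 bp and 956 bp inside. H3K79me2 reached beyond H3K79me3 on the far side in 93.3% of these regions in control and in 95.8% in knockdown cells. The shorter regions with all 4 summits on the same side had similar shares, 91.5% and 94.5%.

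**Figure D1:**
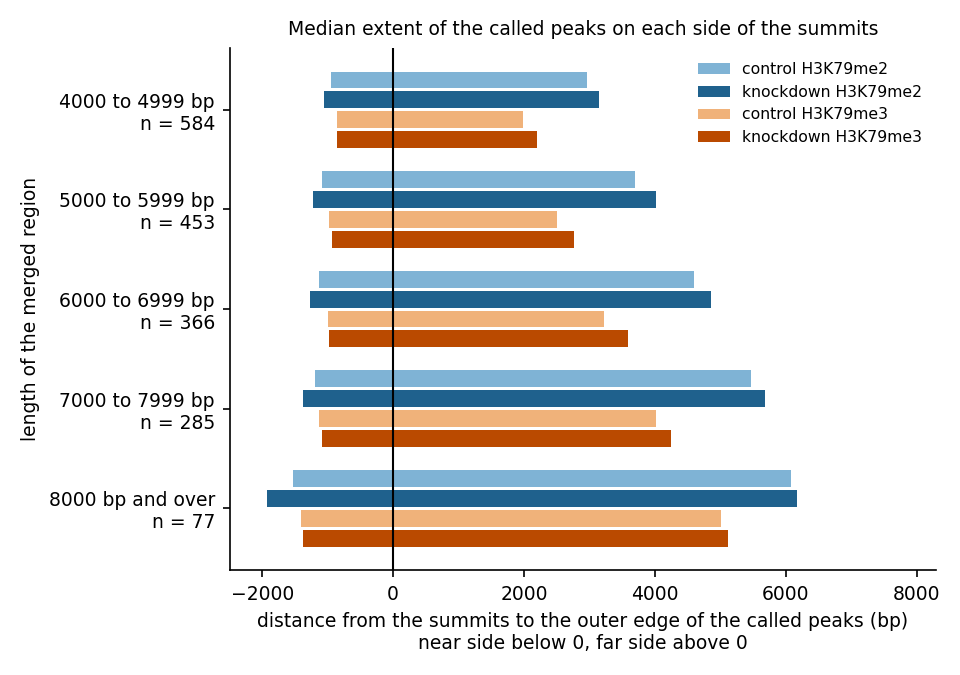
Median distance from the summits (black line at 0) to the outer edges of the called peaks of each library, by length of the merged region; the horizontal axis is in bp and the bars reach from the near edge (below 0) to the far edge (above 0), for the 1765 regions with all 4 main summits on the same side of the midpoint. The bars of both H3K79me2 libraries reach farther to the right than those of both H3K79me3 libraries in each of the 5 length classes, while the left ends lie closer together.

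Since the far side was read from the whole region, which H3K79me2 mostly sets, the sides were also read from the H3K79me3 peak of each line alone; this was chosen after the data were seen. On the longer side of the H3K79me3 peak, H3K79me2 then reached a median of 754 bp farther in control cells (quartiles 276 and 1340) and 778 bp farther in knockdown cells (350 and 1381). On the shorter side it reached 89 bp and 221 bp farther. The excess was greater on the longer side in 75.6% of the 1968 regions in control and 72.8% in knockdown cells. The shorter regions gave 325 and 384 bp on the longer side and 114 and 191.5 bp on the shorter side, so that the lopsided excess was seen there too at a smaller size.

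Summits were placed alike in the 4 libraries. The main summits of control and knockdown lay a median of 201 bp apart for H3K79me2 (quartiles 76.75 and 470.25) and 189 bp apart for H3K79me3 (73 and 427). The summits of the 2 marks lay 195 bp apart in control and 198.5 bp apart in knockdown cells. All 4 lay within 500 bp of each other in 1033 regions (52.5%) and more than 2000 bp apart in 69 (3.51%). In the shorter regions the medians were 151, 150, 149 and 153 bp in the same order.

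Longer regions were also denser in tags. Tag density in RPM per kb of called peak had a median of 6.44 in control H3K79me2 (quartiles 4.72 and 9.18), 5.56 in knockdown H3K79me2 (4.29 and 7.62), 4.53 in control H3K79me3 (2.98 and 7.21) and 6.69 in knockdown H3K79me3 (4.76 and 9.92). The shorter regions stood lower in each library, at 4.43, 3.999, 2.67 and 4.22. From regions under 5000 bp to those of 8000 to 9000 bp the median of control H3K79me2 went from 5.79 to 10.3, that of knockdown H3K79me2 from 4.97 to 8.85, that of control H3K79me3 from 3.999 to 9.04 and that of knockdown H3K79me3 from 5.99 to 11.8. Densities of the same region tracked each other across libraries: Spearman's rho across the 1968 regions ran from 0.897 (knockdown H3K79me2 with control H3K79me3) to 0.946 (control H3K79me3 with knockdown H3K79me3). Regions share libraries and are not independent replicates. With tags scaled to the filtered library, knockdown H3K79me3 was the densest library in 1119 long regions (56.9%) and control H3K79me2 in 698 (35.5%). The shorter regions had the reverse order, with 32.5% and 51.6%. Control H3K79me3 was the least dense in 1433 long regions (72.8%), against 87.7% of the shorter regions. These ranks are not given for tags scaled to the tags in each library's peaks.

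**Figure D2:**
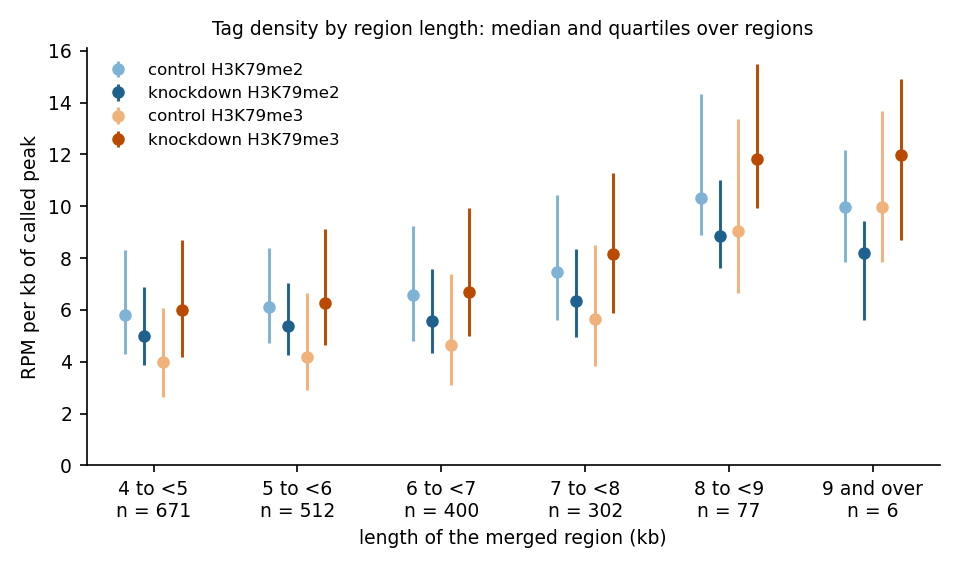
Tag density (RPM per kb of called peak, linear axis from 0) by length class of the merged regions in kb; points are medians over regions and bars reach from the lower to the upper quartile. All 4 libraries stand higher at 8000 to 9000 bp than under 5000 bp, and control H3K79me3 is the lowest in each class below 8000 bp; the class of 9000 bp and over has 6 regions.

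With tags scaled to the filtered library, though not with tags scaled to the tags in peaks, H3K79me3 density was higher in the knockdown than in the control library in nearly all long regions. The median log2 ratio, knockdown over control, was 0.51 (quartiles 0.34 and 0.72), a 1.43-fold difference. The ratio was above 0 in 1926 of 1968 regions (97.9%, 95% interval 97.1 to 98.5%) when tags were scaled to the filtered library, but in 44.1% of them when scaled to the tags in each library's peaks, which moved each H3K79me3 log2 ratio by -0.55 and turned the median to -0.04. Over all regions with H3K79me3 in both lines, with tags scaled to the filtered library, 4907 of 5066 (96.9%) were above 0, a share near that of the long regions. That second scaling sets the peak totals of the lines equal by construction. With the filtered library as scale, the counting interval of the ratio lay wholly above 0 in 1741 long regions (88.5%) and wholly below 0 in 12 (0.610%). The shares over all 5066 regions are not given, so these counts show no trait of the long regions. A difference of 1.5-fold or more upward was found in 776 long regions (39.4%, 95% interval 37.3 to 41.6%), against 44.7% of all 5066 merged regions with H3K79me3 in both lines and 51.1% of the shorter regions with both marks. No long region was 1.5-fold lower (upper limit of the 95% interval 0.187%), against 0.178% of all such regions. By summed RPM, not divided by called length, 957 long regions (48.6%) were 1.5-fold higher, against 52% of all regions, and 12 (0.610%) were 1.5-fold lower, against 2.01%. The authors' fold enrichment, which sets each peak against its own library's surroundings, had a median log2 ratio of 0.04, and 58.4% of the regions were higher. Among the shorter regions the median was 0.18 by this measure, and 74.8% were higher.

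H3K79me2 density was lower in the knockdown library in most long regions on the first scaling and not on the second. The median log2 ratio was -0.22 (quartiles -0.36 and -0.06), a ratio of 0.856. It was below 0 in all but 341 regions (17.3%, 95% interval 15.7 to 19.1%) with tags scaled to the filtered library, whereas 60.0% were above 0 when tags were scaled to the tags in peaks, which moved each H3K79me2 log2 ratio by 0.28 and turned the median to 0.05. With the filtered library as scale, 28.6% of all 5428 regions with H3K79me2 in both lines and 468 of the 1954 shorter regions (23.95%) were above 0. On that same scale the counting interval lay wholly below 0 in 1078 long regions (54.8%) and wholly above 0 in 75 (3.81%). The shares over all 5428 regions are not given, so these counts show no trait of the long regions. A ratio 1.5-fold or more lower was found in 122 long regions (6.20%), against 4.42% of all 5428 merged regions with H3K79me2 in both lines, and 1.5-fold or more higher in 4 (0.203%), against 0.829%. By summed RPM 141 long regions (7.16%) were 1.5-fold higher, against 17.2% of all regions, and 61 (3.10%) were 1.5-fold lower, against 3.52%. The median by summed RPM was -0.13.

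Ratios per kb and by summed RPM parted where called lengths differed, for both marks. This holds by construction, since called length is the divisor of RPM per kb, and the values below show only its size. Knockdown H3K79me2 peaks covered more bp than control peaks in 1312 long regions (66.7%). In the 243 regions where they covered over 1.5 times as much, the median log2 ratio was -0.32 per kb but 0.60 by summed RPM. In the 889 regions where the called length agreed within 10%, it was -0.22 per kb, and 12.8% of these regions were higher in knockdown cells. In the 238 regions where knockdown H3K79me3 peaks covered over 1.5 times as much as control peaks, the median H3K79me3 log2 ratio was 0.65 per kb and 1.57 by summed RPM. For H3K79me3, the 929 regions with called lengths within 10% gave a median of 0.48, with 98.4% higher.

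With tags scaled to the filtered library, 1591 regions (80.8%) had higher H3K79me3 and lower H3K79me2 density in the knockdown library, 335 (17.0%) had both marks higher, 36 had both lower and 6 had H3K79me3 lower and H3K79me2 higher. Of the last 6, 5 lay on a peak of an input library. Among the shorter regions, 74.6% had higher H3K79me3 and lower H3K79me2, and 22.6% had both higher. The H3K79me3 log2 ratio exceeded the H3K79me2 log2 ratio in 1951 regions (99.1%), by a median of 0.74, or 1.67-fold, against 97.8% of the shorter regions. With tags scaled to the peak totals this difference was -0.09 at the median, and 35.0% of the regions were above 0. Across the 1968 regions the ratios of the marks had a Spearman's rho of 0.444. The 2 ratios rest on different libraries but on the same pair of cell lines. The fragment length estimated by the caller was longer in the knockdown library for H3K79me2 and shorter for H3K79me3. Its part in these ratios, through the called length, was not tested.

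**Figure D3:**
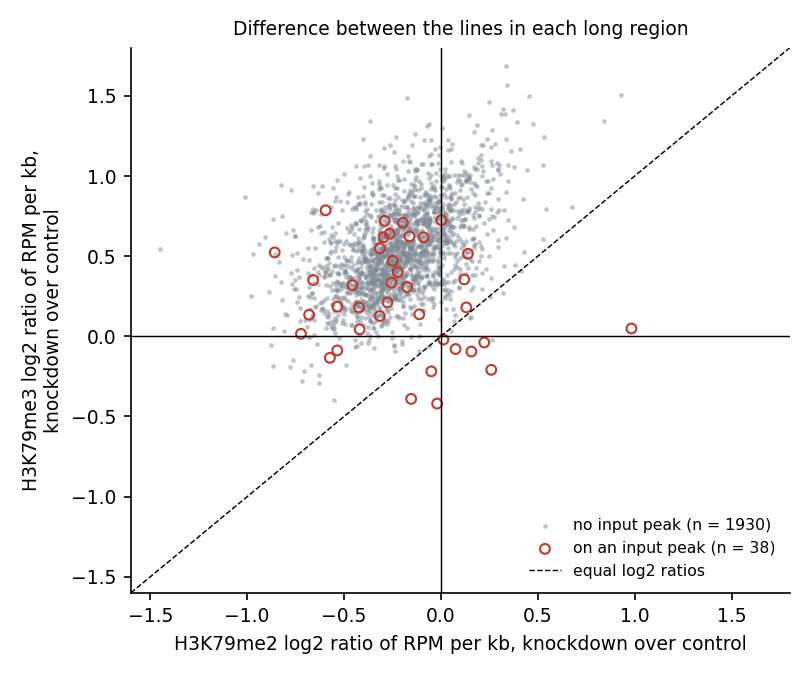
Log2 ratio of tag density (RPM per kb), knockdown over control, for H3K79me2 (horizontal) and H3K79me3 (vertical); each point is 1 of the 1968 long regions, open red circles are the 38 on an input peak, solid lines mark 0 and the dashed line marks equal ratios. Most points lie to the upper left of the lines at 0 and above the dashed line with tags scaled to the filtered library; scaling to tags in peaks would move the points by 0.28 to the right and 0.55 down, which turns both medians.

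The log2 ratios of both marks, knockdown over control, were lower in denser regions. The regions were divided into 10 classes of equal size by the mean log2 density of the 4 libraries, in which both lines count equally. In the lowest class the median log2 ratio was 0.64 for H3K79me3 and -0.09 for H3K79me2. In the highest class it was 0.24 and -0.41. Regions with H3K79me3 1.5-fold or more higher numbered 118 of 197 in the lowest class and 10 of 197 in the highest. The gap between the ratios of the marks stayed between 0.69 and 0.81 in each class, so both ratios ran down in parallel as density went up. Spearman's rho between mean density and the ratio was -0.403 for H3K79me2 and -0.442 for H3K79me3. Scaled to tags in peaks, the medians went from 0.09 in the lowest to -0.31 in the highest class for H3K79me3 and from 0.18 to -0.14 for H3K79me2, so that the rank of the signed ratios is the same and their sizes are not. Depth is part of these measures, since the caller kept at most 1 tag per position, and the part of that limit was not tested. Over all long regions the median was 0.0731 to 0.110 tags per bp of called peak in the 4 libraries. The highest values were 0.605 to 1.00, in a region of chromosome 6 on an input peak.

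**Figure D4:**
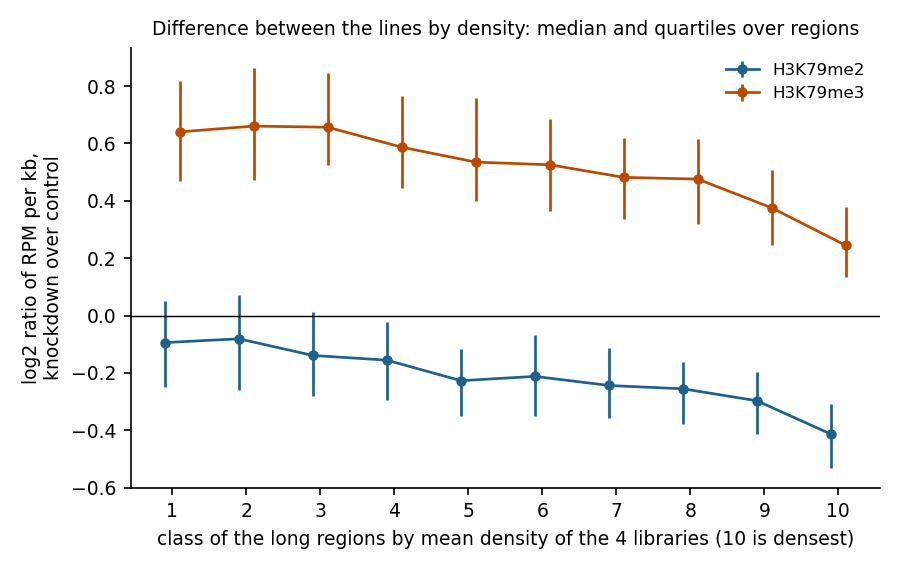
Log2 ratio of RPM per kb, knockdown over control, in 10 classes of the long regions ordered by mean density of the 4 libraries (196 or 197 regions each); points are medians and bars quartiles. H3K79me3 runs from 0.64 in the lowest to 0.24 in the highest class and H3K79me2 from -0.09 to -0.41, both with tags scaled to the filtered library; scaling to tags in peaks would move the H3K79me3 points down by 0.55 and the H3K79me2 points up by 0.28.

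Within a line, the balance of the marks differed. In control cells the density of H3K79me3 was 0.712 of that of H3K79me2 at the median (log2 -0.49, quartiles -0.68 and -0.28), and H3K79me3 was the denser mark in 114 regions (5.79%), against 5.22% of all regions with both marks in control cells. In knockdown cells the ratio was 1.20 (log2 0.26, quartiles 0.09 and 0.44), and H3K79me3 was the denser in 1687 regions (85.7%), against 65.6%. The shorter regions stood at 0.618 and 1.08, with 64.1% denser in H3K79me3 in knockdown cells. By summed RPM the knockdown log2 ratio was -0.13, and scaled to tags in peaks it was -0.15, so its direction rests on the scale. The control balance turned as well by the authors' fold enrichment, to a log2 ratio of 0.15 with 73.7% of the regions above 0. The antibodies differ, and these ratios compare enrichments and are not amounts of each methylated form. In RPM per kb the balance leaned toward H3K79me3 with length in both lines. The median log2 ratio went from -0.56 under 5000 bp to -0.22 at 8000 to 9000 bp in control cells. In knockdown cells it went from 0.21 to 0.42. The authors' fold enrichment did not show this lean. Between the same classes its control medians went from 6.07 to 4.06 for H3K79me3 and from 5.53 to 3.84 for H3K79me2. In knockdown cells they went from 6.43 to 3.99 and from 5.07 to 3.48.

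Single regions show how shape and level combined. The longest, 95237574 to 95248821 on chromosome 13, had H3K79me3 at 7.92 RPM per kb in control and 7.91 in knockdown cells. H3K79me2 stood at 7.64 and 4.75. The control H3K79me2 peak covered 6510 bp and the 2 knockdown peaks 10877 bp, because a second knockdown peak of 4815 bp with 179 tags lay on the far side. Of the 10 longest regions, the others outside input peaks lay at 49056114 to 49067204 on chromosome 3, 156690890 to 156700444 on chromosome 1, 153605584 to 153614813 on chromosome 1, 79664584 to 79673723 on chromosome 17, 121452164 to 121461240 on chromosome 8, 76250974 to 76259931 on chromosome 1, 91924366 to 91933274 on chromosome 9, and 85367756 to 85376600 on chromosome 11. In these 8 regions the H3K79me3 log2 ratio ran from 0.00 to 0.50 and the H3K79me2 log2 ratio from -0.59 to -0.18 with tags scaled to the filtered library. Scaled to tags in peaks these ranges were -0.55 to -0.06 and -0.31 to 0.10, and they overlapped. The densest of them in control H3K79me2 was 76250974 to 76259931 on chromosome 1, where control and knockdown H3K79me2 stood at 18.0 and 13.1 RPM per kb and H3K79me3 at 17.6 and 18.5.

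The largest H3K79me3 ratios were sought among the 1646 long regions with 100 tags or more in each ChIP library and no input peak. The highest lay at 126099715 to 126107573 on chromosome 10. H3K79me3 there had 266 tags in control and 684 in knockdown cells, at 2.47 and 7.33 RPM per kb, a log2 ratio of 1.57 (95% counting interval 1.36 to 1.78). H3K79me2 went the same way, with 4.60 and 5.82 RPM per kb and a log2 ratio of 0.34 (0.17 to 0.51). The next were 86846158 to 86850995 on chromosome 2 (log2 ratio 1.42), 1648502 to 1652696 on chromosome 19 (1.39), 149887415 to 149895789 on chromosome 6 (1.38), and 7459819 to 7466979 on chromosome 19 (1.34). Their control H3K79me3 densities, 2.47 to 3.57 RPM per kb, all lay below the median of the long regions. Choice by a high ratio favours a low control density, which is its divisor, so this is no separate finding. H3K79me2 was denser in knockdown cells in the first 4 of these 5. By summed RPM the H3K79me3 log2 ratios of the 5, in the same order, were 1.42, 1.66, 1.51, 0.55 and 1.06. In the chromosome 6 region the control H3K79me3 peak had 6778 bp and the knockdown peak 3812 bp.

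The lowest H3K79me3 ratios among the same 1646 regions were smaller in size, and the control density was not low in all of them. Choice by a low ratio in turn favours a high control density. At 168323614 to 168328527 on chromosome 1, H3K79me3 stood at 3.39 RPM per kb in control and 2.57 in knockdown cells (log2 ratio -0.40, counting interval -0.73 to -0.07), from 249 and 115 tags. H3K79me2 was lower there too, at 4.56 and 3.11 (-0.55). The others were 27439550 to 27444172 on chromosome 2 (-0.29), 92919037 to 92925738 on chromosome 5 (-0.28), 133133980 to 133139426 on chromosome 6 (-0.24), and 127566701 to 127570723 on chromosome 8, whose ratio of -0.21 had a counting interval that includes 0 (-0.55 to 0.12). In all 5 the H3K79me2 log2 ratio was lower still, from -0.71 to -0.55. By summed RPM the H3K79me3 log2 ratios of the 5, in the same order, were -1.06, -0.01, -0.80, 0.13 and -0.54. In the chromosome 2 and chromosome 6 regions the knockdown H3K79me3 peak was called longer than the control peak. Among all 42 long regions with lower H3K79me3 density, 17 belonged to the densest class, which holds 10.0% of the long regions, and 10 lay on an input peak, against 1.93% of the long regions. Both held for 8 of them.

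**Figure D5:**
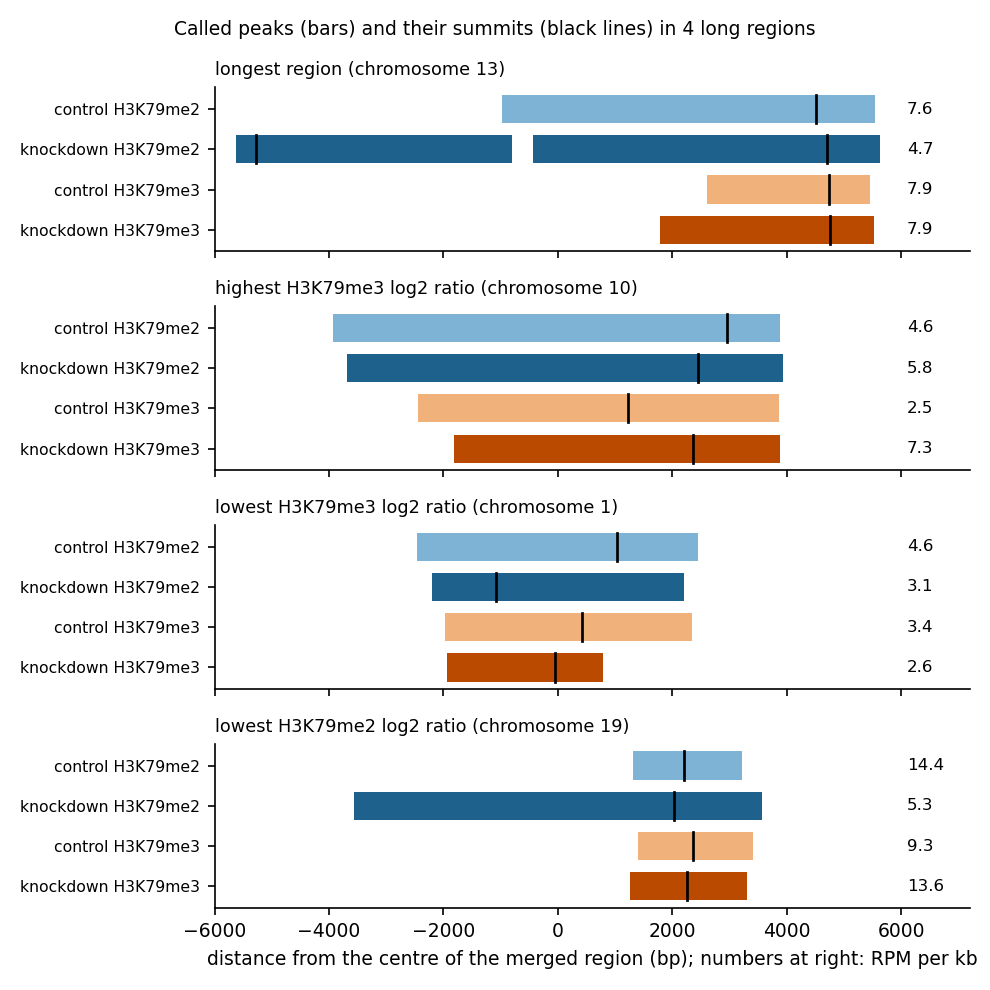
Called peaks (bars) and their summits (black lines) in 4 long regions, by distance in bp from the centre of the region; numbers at the right are RPM per kb of called peak in that library. The panels show the longest region, the highest and lowest H3K79me3 log2 ratios and the lowest H3K79me2 log2 ratio among regions with 100 tags or more in each library and no input peak; in the lowest panel the knockdown H3K79me2 bar is 7120 bp long and the other 3 are 1913 to 2029 bp.

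The extremes of H3K79me2 followed called length in the regions with the lowest ratios. Choice by a ratio per kb favours such regions, since called length is its divisor. At 4117440 to 4124559 on chromosome 19, the control peak of 1913 bp held 441 tags and the knockdown peak of 7120 bp held 493, so that the log2 ratio was -1.45 per kb and 0.45 by summed RPM. The next lowest were 40501322 to 40507091 on chromosome X (-1.01), 27556924 to 27564330 on chromosome 16 (-0.98), 80050970 to 80056337 on chromosome 17 (-0.97), and 153947549 to 153952266 on chromosome 1 (-0.94), and in each the knockdown peak was the longer. By summed RPM those 4 stood at 0.90, 0.06, -0.36 and -0.12. The highest ratio, 0.67 at 1254119 to 1259326 on chromosome 1, was the reverse case: control H3K79me2 had 503 tags in 5181 bp and knockdown 157 tags in 1235 bp, and by summed RPM the ratio was -1.39. A further merged region began 42 bp from its edge. The others, 16187145 to 16193102 on chromosome 19 (0.53), 20785314 to 20792436 on chromosome 22 (0.47), 107241428 to 107246398 on chromosome 3 (0.44), and 129567122 to 129573645 on chromosome 9 (0.43), had summed RPM ratios of 0.59, 0.73, 0.50 and 0.01. H3K79me3 was higher in knockdown cells in all 5, by log2 ratios of 0.81 to 1.32.

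The regions in which the marks parted most and least, sought among the same 1646 regions, followed the same pattern. Over all 1968 long regions the smallest difference was -0.93. The largest differences between the H3K79me3 and the H3K79me2 log2 ratio were 1.99 and 1.88 in the chromosome 19 and chromosome X regions with the lowest H3K79me2 ratios. They were 1.77 at 43578860 to 43583170 on chromosome 22, 1.71 at the region from 7459819 on chromosome 19, and 1.69 at 30771746 to 30776386 on chromosome 16. Knockdown H3K79me2 was called longer than control H3K79me2 in all 5. The smallest differences ran from -0.05 to -0.01, at 39262779 to 39268880 on chromosome 22, 178047585 to 178054219 on chromosome 5, 99612713 to 99620003 on chromosome 7, 47093055 to 47097251 on chromosome X, and 45394183 to 45400456 on chromosome 19. There knockdown H3K79me2 was called shorter than control in all 5, for example 3489 against 6102 bp in the first.

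A small number of long regions stood on peaks of the input libraries. They numbered 38 (1.93%, 95% interval 1.37 to 2.64%), against 4.96% of the shorter regions. Their median log2 ratio was 0.20 for H3K79me3 and -0.24 for H3K79me2, against 0.52 and -0.22 in the other 1930. The 5 long regions with most tags were all among them, at 27731742 to 27740587 on chromosome 19, 58775224 to 58780250 on chromosome 6, 61967029 to 61973595 on chromosome 7, 121478275 to 121485591 on chromosome 1, and 42596621 to 42600948 on chromosome 10. The first held 215 and 259 RPM of H3K79me2 and 301 and 260 RPM of H3K79me3 in control and knockdown cells, while the input libraries held 467 and 468 RPM in their peaks there. In all 5 the input value was above that of both marks in both lines. The H3K79me3 log2 ratio ran from -0.21 to -0.02 and that of H3K79me2 from 0.01 to 0.26 with tags scaled to the filtered library. The listed input tags exceeded those of both marks in both lines in 13 of the 38 regions. The ChIP peaks were called without input as control.

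Long regions were spread over the genome and lay mostly alone. Chromosome 1 held 192, chromosome 19 held 155, and chromosomes 2 and 17 held 131 each. Per Mb up to the last listed peak, chromosome 19 had the most, 2.62, and among the chromosomes other than Y chromosome X had the fewest, 0.271. Among regions with both marks in both lines, the long ones made up 41.8% to 61.1% on each autosome and 30.4% on X (42 of 138, 95% interval 22.9 to 38.8%). The median H3K79me3 log2 ratio ran from 0.45 on chromosome 13 to 0.69 on chromosome 21 over the autosomes and was 0.31 on X. For H3K79me2 it ran from -0.29 on chromosome 13 to -0.14 on chromosome 3, with -0.28 on X. These chromosomes share their libraries and give no replication. The nearest other merged region lay a median of 44443 bp away, against 34187 bp for the shorter regions, and within 1 kb in 19 regions (0.965%), against 4.45%. Another long region lay within 10 kb of 100 of them (5.08%).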

How the data were processed

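ChIP-seq of H3K79me2 and H3K79me3 was analysed with the input libraries of 2 lines of 293T cells, 1 library per group. The submitters' processing notes name Bowtie2, of unstated version, and hg19 (GRCh37). The authors called peaks in each library with MACS 1.4.2, per the file headers. No control file was given, the p cutoff was 1e-05, duplicate tags were limited to 1 a position and the regional background spanned 10000 bp. The deposited tags are whole-number counts per peak after that duplicate filter. The deposited fold enrichment is a ratio to the library's own background. The deposited significance column is a score: it is 10 times the -log10 p that its heading names. Depths are the filtered tags of the file headers.

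From these files, peaks of the 4 ChIP lists were merged and tags of each library summed over its peaks in a region, divided by its filtered tags (RPM) and by the called length. Python 3.11.15, pandas 2.3.3, numpy 2.4.6, scipy 1.17.1 and matplotlib 3.10.9 were used. Shares carry exact Clopper-Pearson intervals; intervals of ratios come from the exact binomial interval of the tags of 2 libraries. A ratio of 1.5-fold counted as a difference; there was no test and no p-value. The merging and the ratios were tested on simulated data. Regions named were the 10 longest, the 5 with most RPM, the 5 highest and the 5 lowest for each ratio and for the difference of the ratios (100 tags or more in each library, no input peak), and those nearest the length limit, of which 2 on each side are given. The members, lists and rules were chosen with earlier results of these data known. Alternatives are the length limit, input peaks, the higher-scoring 50% of peaks, a merging distance of 1000 bp, the unit, the scaling and single-peak regions. The planned gene lists were not used, because the annotation at hand is of another build.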

Additional observations from a re-analysis of the deposited data

Results flagged for a closer look

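In the long regions one mark stood higher and the other lower in the knockdown library, with a median log2 ratio of RPM per kb, knockdown over control, of 0.51 for H3K79me3 and -0.22 for H3K79me2. The difference between the marks was not tested, because each mark has 1 library per line, and both medians change sign when tags are scaled to the tags in peaks.

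Input libraries, which took no part in the comparisons, had a called peak on 38 of the 1968 long regions. The control input had 48 peaks there, on 33 regions, with 31455 tags, and the knockdown input 41 peaks, on 28 regions, with 31897 tags.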

How the results depend on the processing

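Of 70 values recomputed, 36 stayed within the 95% interval of the reported value (counts of regions: within 1.5 times), 28 moved and 6 changed sign. For medians that interval covers the spread over regions only. Values follow as log2 medians for the H3K79me3 ratio, the H3K79me2 ratio, their difference, and H3K79me3 over H3K79me2 in control and in knockdown cells, as far as they moved. Scaled to tags in peaks they were -0.039, 0.053, -0.091, -0.071 and -0.15, of which all but the control balance changed sign. By summed RPM they were 0.57, -0.13, 0.69, -0.85 and -0.13, the last with a changed sign. By the authors' fold enrichment they were 0.040, -0.12, 0.16, 0.15 and 0.31, of which the control balance changed sign. A minimum of 3000 bp gave 0.53 for H3K79me3 and -0.54 and 0.24 for the balances. A minimum of 6000 bp left 785 regions, with 0.49 for H3K79me3, 0.71 for the difference and -0.41 and 0.31 for the balances. The higher-scoring 50% of each list left 1034 regions, with 0.46, -0.26, -0.40 and 0.33 for the ratios and the balances, and summits 168 bp (H3K79me2) and 154 bp (H3K79me3) apart. In the 495 regions with called lengths within 10% for both marks, a choice made after the data were seen, H3K79me3 stood at 0.47, the difference at 0.70 and the balances at -0.40 and 0.31. Where scaling changed a sign, its construction sets the peak totals of the lines equal; for the other settings the cause was not tested. No paired analysis was possible because each group has 1 library and the labels give no replicate numbers. Depth limits the weakest regions: the fewest tags in a long region were 18, in control H3K79me3.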

Other observations

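The caller's own measures ran against tag density with length. From long regions under 5000 bp to those of 8000 to 9000 bp, the median of the authors' fold enrichment went from 5.53 to 3.84 in control H3K79me2, from 5.07 to 3.48 in knockdown H3K79me2, from 6.07 to 4.06 in control H3K79me3 and from 6.43 to 3.99 in knockdown H3K79me3. The median score of H3K79me2 went from 356 to 119 in control and from 241 to 77.9 in knockdown cells, while that of H3K79me3 was 292 and 294 in control and went from 434 to 368 in knockdown cells.

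The 2 long regions listed on chromosome Y lay at 1456889 to 1460899 and 1660210 to 1664408, in sequence that Y shares with X. Their H3K79me3 log2 ratios were 0.49 and 0.32 and their H3K79me2 log2 ratios -0.59 and -0.34.

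Among the 38 long regions on input peaks, the one with the highest H3K79me2 log2 ratio per kb, 0.98, lay at chromosome 1, 564379 to 570671. Control and knockdown H3K79me2 held 6.74 and 39.8 RPM there, and the input libraries 133 and 178 RPM. It was chosen after its values were seen.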
